A study of Mus musculus with 16 samples.

Results

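The matrix metalloproteinase and TIMP genes described here are 8 protease genes (Mmp2, Mmp3, Mmp8, Mmp9, Mmp10, Mmp12, Mmp13 and Mmp14) and 2 inhibitor genes (Timp1 and Timp3), found by symbol among the 26357 genes of the count table. All 10 were present and all 10 passed the filter on low counts. Total RNA of 16 mouse samples had been sequenced in 4 groups of 4 libraries: IL-23 with an oral (per os) drug vehicle, IL-23 with an intraperitoneal drug vehicle, and for each route a group given vehicle in place of IL-23. Every group, controls included, had received the drug vehicle at 0 mpk of compound, and the series title places the samples in a study of psoriasiform dermatitis driven by IL-23, a cytokine that sustains type 17 lymphocytes. The labels give no tissue, strain, age, IL-23 dose or day of harvest, and they do not say whether each library is a separate animal, so each p-value reflects only variation among libraries, which may be technical. Libraries are called by the number that opens their title, and values are listed in the order 4, 27, 33 and 51 (oral vehicle), 14, 24, 26 and 68 (oral IL-23), 49, 50, 59 and 67 (intraperitoneal vehicle) and 25, 31, 61 and then 28 (intraperitoneal IL-23).

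Matrix metalloproteinases are zinc-dependent endopeptidases that are made as inactive proenzymes and, once activated, cut collagens, elastin, proteoglycans and many cytokines and receptors. TIMPs are small proteins that bind the active site of these proteases and block it. In skin, keratinocytes, fibroblasts, macrophages and neutrophils are each known sources of some of these genes, and transcription factors of the AP-1 family, which respond to IL-1 and TNF, are classical activators of several of them.

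Library totals ran from 6381990 to 10078531 counts in the 8 IL-23 libraries and from 7159325 to 14432930 in the 8 vehicle libraries. Levels are given as CPM, counts scaled to a common library size after TMM correction, which adjusts for differences in RNA composition. IL-23 intraperitoneal library 28 stood apart from the other 15 libraries on the second principal component (-62.5 against -14.1 to 20.9), so the 10 genes' results in that route are given with and without it, as are the list results that change without it. Its summed level of 8 fibroblast markers (Col1a1, Col1a2, Col3a1, Pdgfra, Pdgfrb, Dcn, Lum and Fap) was 5161 CPM, against 1132 to 1840.3 CPM in the 3 other IL-23 intraperitoneal libraries and 1748 to 2971 CPM in the intraperitoneal vehicle libraries. Its macrophage marker sum was 863 CPM against 279.9 to 437 CPM in those 3 libraries, and its keratinocyte marker sum was 35611 CPM against 45919 to 65492 CPM. Some markers departed from these sums. The macrophage marker Cd14 was low (45.5 against 47.8 to 118 CPM) and the fibroblast marker Fap within range (9.92 against 8.79 to 10.9 CPM). The keratinocyte markers Itga6 (301 against 202 to 255 CPM) and Dsg3 (277 against 175 to 238 CPM) were high. All other markers of these lists lay on the side of their sum. Keratinocyte markers (7 genes, among them the keratin genes Krt5 and Krt14) summed to 19343 to 27069 CPM in the 8 vehicle libraries and were at 0 in no library, although no tissue is labelled. With IL-23 they summed to 45144.5 to 51334 CPM in oral and 35611 to 65492 CPM in intraperitoneal libraries. The keratinocyte sum of library 28 thus lay above that of every vehicle library. The part of this library's marker levels in the results below was not tested beyond leaving it out.

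**Figure D1:**
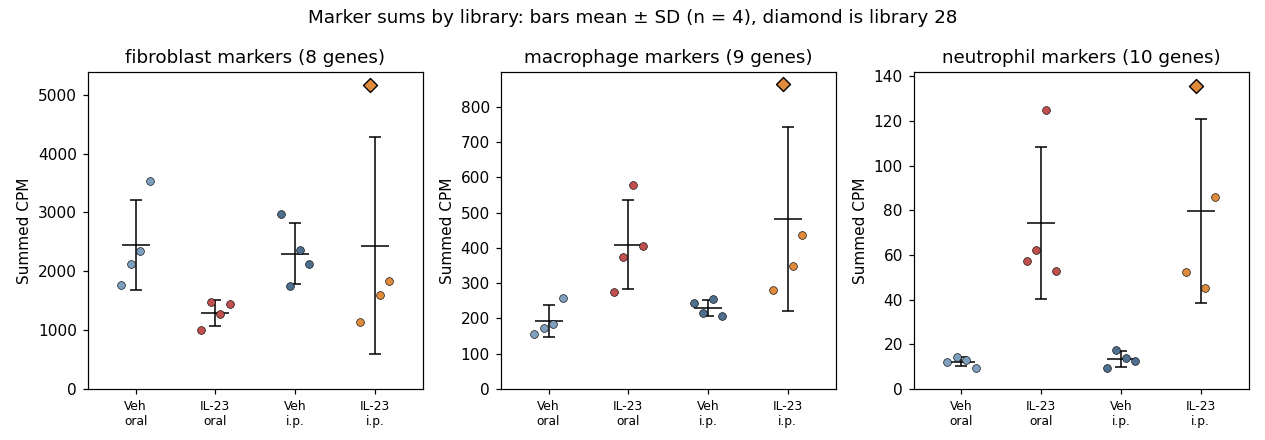
Summed CPM of 8 fibroblast, 9 macrophage and 10 neutrophil marker genes in each of the 16 libraries, with the mean ± SD of each group (n = 4). Library 28, drawn as a diamond, lies at 5161 CPM for fibroblast markers and 863 CPM for macrophage markers, above the other libraries of its group.

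IL-23 went with a rise of Timp1, Mmp9 and Mmp12 and a fall of Timp3, Mmp2, Mmp3 and Mmp14 in orally dosed mice. In intraperitoneally dosed mice Timp1 and Mmp9 rose and Timp3 fell. A gene was called when its adjusted p lay under 0.05 in edgeR's quasi-likelihood test with Benjamini-Hochberg adjustment over 14671 genes. Of the 10 genes, 3 were called higher and 4 lower in oral mice, where 29.2% of all genes were called higher and 34% lower (63.3% in all). In intraperitoneal mice 2 were called higher and 1 lower, against 30.8% and 30.9% of all genes (61.7% in all). The oral shares of the 10 genes were thus near those of all genes. The 4 IL-23 libraries did not overlap with the 4 vehicle libraries for 6 of the 10 genes in oral mice (59.7% of all genes) and for 4 in intraperitoneal mice (51% of all genes). The median log2 fold change of the 10 genes was 0.54 in oral and 0.70 in intraperitoneal mice, against -0.06 and -0.02 over all genes. Each median of the 10 genes lies midway between Mmp10 and Mmp13, neither of which was called in either route with all libraries. Without library 28, 5 genes were called higher and 4 lower in oral mice (32.1% and 33.7% of all genes, 65.9% in all). Mmp8, which the IL-23 libraries could carry past the filter, was among those 5. In intraperitoneal mice 3 were then higher and 4 lower (30.5% and 30.4% of all genes, 60.9% in all). Whole-tissue RNA cannot tell fewer cells of a type from less RNA per cell, which applies to each level below.

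**Figure D2:**
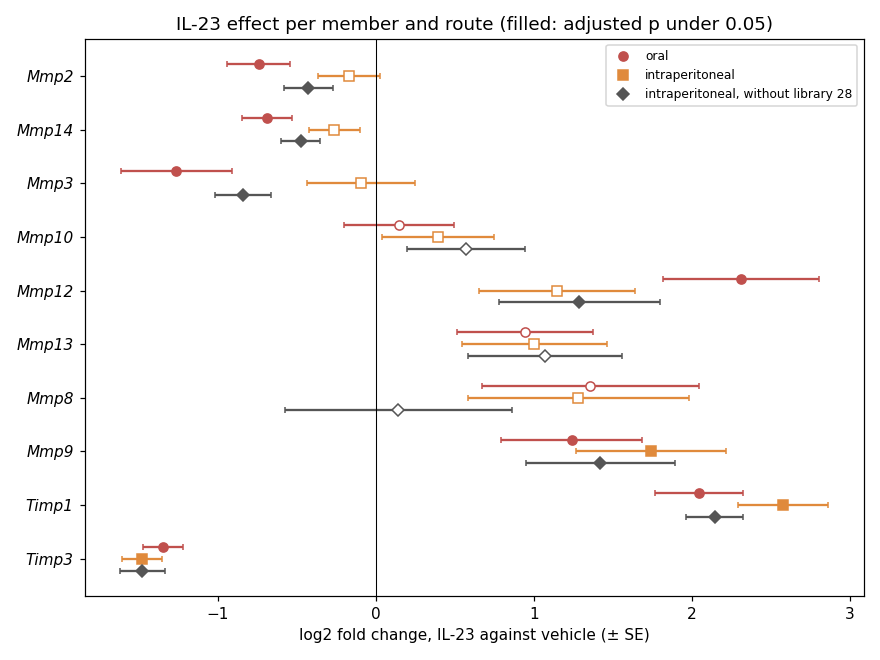
Log2 fold change (± SE) of IL-23 against vehicle for each of the 10 genes in oral mice, in intraperitoneal mice, and in intraperitoneal mice without library 28; filled symbols passed an adjusted p of 0.05. Timp1 and Mmp9 lie above 0 and Timp3 below 0 in all 3 settings, while Mmp2, Mmp3, Mmp12 and Mmp14 were called in intraperitoneal mice after library 28 was left out.

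Of the 10 genes, 5 lie in the MMP gene cluster of chromosome 9 (GRCm38.p6, RefSeq), where 10 MMP genes occupy 427.1 kb in the order Mmp13, Mmp12, Mmp1b, Mmp3, Mmp1a, Mmp10, Mmp8, Mmp27, Mmp20 and Mmp7. The other genes lie on chromosome 8 (Mmp2), chromosome 2 (Mmp9), chromosome 14 (Mmp14), chromosome X (Timp1) and chromosome 10 (Timp3). The promoters of 4 cluster genes are shown because they hold the same short motif although Mmp3 fell and Mmp12 rose in oral mice, and that of Timp1 because it holds none. Each line holds the 110 bases before the RefSeq start on the gene's strand, 5′ to 3′, and capitals mark TGANTCA, the AP-1 consensus, which is its own reverse complement, and TATAAA on either strand. No match of one overlaps a match of the other.
Mmp13 (chr9:7272404-7272513, + strand): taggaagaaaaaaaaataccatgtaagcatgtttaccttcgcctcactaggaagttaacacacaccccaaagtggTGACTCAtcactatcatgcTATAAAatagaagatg
Mmp3 (chr9:7445712-7445821, + strand): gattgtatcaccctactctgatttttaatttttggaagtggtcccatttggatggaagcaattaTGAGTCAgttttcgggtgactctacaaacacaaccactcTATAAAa
Mmp10 (chr9:7502232-7502341, + strand): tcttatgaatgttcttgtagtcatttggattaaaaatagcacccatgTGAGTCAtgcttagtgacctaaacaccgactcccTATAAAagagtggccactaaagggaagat
Mmp12, second of its 2 listed starts (chr9:7347264-7347373, + strand): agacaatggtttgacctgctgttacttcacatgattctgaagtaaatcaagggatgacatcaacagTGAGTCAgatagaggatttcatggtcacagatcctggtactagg
Timp1 (chrX:20870056-20870165, + strand): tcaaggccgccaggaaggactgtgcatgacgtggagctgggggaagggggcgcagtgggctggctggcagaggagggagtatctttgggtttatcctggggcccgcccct
The TGANTCA match began 35 bases before the start in Mmp13, 46 in Mmp3, 63 in Mmp10 and 44 at the second listed start of Mmp12. The first listed start of Mmp12 held neither motif. Among the 8 genes of this set that had a promoter entry in the RefSeq table, 4 held TGANTCA within 250 bases before a start, and 6.75% of all 32851 listed promoters held it (12.4% held TATAAA). These are unlike counts: a gene counted if any of its starts held the motif, while the percentages count each listed promoter. Neither motif was found in the 250 bases before the start of Timp1, Timp3, Mmp14 or Mmp8. These matches describe letters only. Mmp3 and Mmp10 share 140 stretches of 50 bases between their transcripts (of 1752 and 1673), so reads from those stretches may be split between them, and no other pair of the 45 pairs shares any. Of the exon bases of Mmp12, 3.94% lie opposite an exon of Mmp1b, and the strand setting of the counting is not given in the sources used here.

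Mmp2 (ID 17390, chromosome 8, 92827290 to 92853421) encodes gelatinase A, which cuts denatured collagen and type IV collagen, and fibroblasts are its usual source. Its level was 169, 174, 190.5 and 258 CPM in oral vehicle libraries and 106, 142, 101 and 123 CPM in oral IL-23 libraries. All 4 IL-23 libraries lay below all 4 vehicle libraries, with means of 118 ± 18.8 and 198 ± 41.0 CPM (SD; 4 libraries in each). Mmp2 fell by 0.74 ± 0.20 on the log2 scale (SE; edgeR adjusted p = 0.00365). In intraperitoneal mice Mmp2 stood at 222, 159, 184 and 192 CPM with vehicle and at 123, 132, 164 and, in library 28, 255 CPM with IL-23. Library 28 held the highest of these 8 values, and the groups overlapped (log2 fold change -0.17 ± 0.20, edgeR adjusted p = 0.469). Without it the log2 fold change was -0.43 ± 0.15 and the fall was called (edgeR adjusted p = 0.023), although the groups still overlapped.

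Mmp14 (ID 17387, chromosome 14, 54431598 to 54442456) encodes the membrane-type protease that activates the MMP2 proenzyme at the cell surface. Oral vehicle libraries held 141, 105, 117 and 128 CPM and oral IL-23 libraries 63.7, 87.2, 80.2 and 73.1 CPM. The groups did not overlap, and Mmp14 fell by 0.69 ± 0.16 on the log2 scale (SE; edgeR adjusted p = 0.00125). Intraperitoneal vehicle libraries held 116, 94.1, 87.4 and 111 CPM, and IL-23 libraries 77.5, 71.7 and 68.8 CPM with 122 CPM in library 28. With all libraries the log2 fold change was -0.26 ± 0.16 (edgeR adjusted p = 0.163). Plain library size in place of TMM gave -0.47 (edgeR adjusted p = 0.0285). Without library 28 it was -0.48 ± 0.12 (edgeR adjusted p = 0.00283), and the 3 remaining IL-23 libraries then lay below all vehicle libraries.

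Mmp3 (ID 17392, chromosome 9, 7445822 to 7455975) encodes stromelysin-1, a broad matrix protease that also activates other MMP proenzymes. It had 88.8, 102, 77.9 and 104 CPM in oral vehicle libraries and 33.3, 31.9, 41.9 and 47.2 CPM in oral IL-23 libraries. Each oral IL-23 library was below each oral vehicle library, a log2 fold change of -1.26 ± 0.35 (SE; edgeR adjusted p = 0.00499). Intraperitoneal vehicle libraries had 88.4, 54.0, 93.7 and 88.9 CPM. The IL-23 libraries of that route had 39.2, 51.1 and 44.3 CPM, and library 28 had 168 CPM, the highest value of all 16 libraries. The log2 fold change with library 28 was -0.09 ± 0.34 (edgeR adjusted p = 0.828). It was -0.84 ± 0.18 without library 28 (edgeR adjusted p = 0.000492), and the groups then did not overlap.

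The 3 genes with a fall in oral mice and a high value in library 28 moved beside some of the fibroblast markers. Of the 8 markers, 5 fell and 0 rose in oral mice (median log2 fold change -0.86, summed level 1769.7 to 3538 CPM with vehicle and 1001 to 1474 CPM with IL-23). In intraperitoneal mice 2 fell and 0 rose (median -0.16), and without library 28, 5 fell and 0 rose (median -0.74). Of all genes, 34% fell in oral mice, 30.9% in intraperitoneal mice and 30.4% in the latter without library 28. No marker was at 0 in any library. The collagen gene Col1a1 had a log2 fold change of -1.10 in oral mice, -0.15 in intraperitoneal mice and -0.79 without library 28, beside -1.26, -0.09 and -0.84 for Mmp3. Col1a2 and Dcn likewise fell in intraperitoneal mice only without library 28. Fap (-1.12, -1.11 and -1.10) and Pdgfrb (-0.85, -0.82 and -1.06) fell there with or without it. With all libraries Lum (-0.48 and 0.35) and Pdgfra (-0.57 and 0.41) were called in neither route. The part of fibroblast content in the levels of Mmp2, Mmp3 and Mmp14 was not tested.

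Mmp10 (ID 17384, chromosome 9, 7502342 to 7510242) encodes stromelysin-2, a protease of migrating keratinocytes, and it had few counts. Counts were 30, 22, 29 and 8 in oral vehicle libraries and 13, 14, 14 and 28 in oral IL-23 libraries. In intraperitoneal mice they were 18, 11, 32 and 15 with vehicle and 12, 22, 17 and 13 with IL-23. After scaling, means were 1.95 ± 0.82 and 2.14 ± 0.59 CPM in oral mice and 1.67 ± 0.60 and 2.22 ± 0.61 CPM in intraperitoneal mice (SD, n = 4 each). The groups overlapped in both routes. The log2 fold changes of 0.15 ± 0.35 and 0.39 ± 0.36 were not called (edgeR adjusted p = 0.726 and 0.348), and with plain library size the oral value was -0.04.

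Mmp13 (ID 17386, chromosome 9, 7272514 to 7283333) encodes collagenase-3, the main interstitial collagenase of rodents. In oral mice its level was 11.2, 9.75, 12.3 and 3.35 CPM with vehicle and 12.2, 4.95, 25.3 and 28.3 CPM with IL-23. IL-23 libraries 26 and 68 were the highest of all, and library 24 lay below 3 of the vehicle libraries. The log2 fold change of 0.94 ± 0.43 was not called (SE; edgeR adjusted p = 0.0658), but was called without library 24 (1.26, edgeR adjusted p = 0.00741) and without library 28 (0.97, edgeR adjusted p = 0.0452). Intraperitoneal vehicle libraries had 3.79, 8.44, 6.67 and 3.50 CPM and IL-23 libraries 10.1, 11.4, 12.6 and 10.2 CPM. These groups did not overlap, as held for 51% of all genes in that route, and the log2 fold change of 1.003 ± 0.46 was not called (edgeR adjusted p = 0.0675). A fit of only the 2 intraperitoneal groups called it (edgeR adjusted p = 0.0112), as did leaving out vehicle oral library 51 (0.0411), IL-23 oral library 24 (0.0263) or vehicle intraperitoneal library 50 (0.0419).

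Mmp8 (ID 17394, chromosome 9, 7558429 to 7568486) encodes the collagenase stored in neutrophil granules. Its counts were 9, 2, 7 and 7 in oral vehicle libraries and 9, 10, 21 and 4 in oral IL-23 libraries. Intraperitoneal vehicle libraries had 8, 6, 7 and 3 counts, and IL-23 libraries had 0, 6 and 6 with 28 in library 28. Groups overlapped in both routes. Vehicle libraries held at most 0.79 CPM, so the IL-23 libraries could carry Mmp8 past the filter. Its calls below are thus a description. The log2 fold changes of 1.36 ± 0.68 and 1.28 ± 0.70 were not called (SE; edgeR adjusted p = 0.0929 and 0.121). The oral one was called without IL-23 oral library 68 (edgeR adjusted p = 0.0400). It was also called without IL-23 intraperitoneal library 25 or 28 (edgeR adjusted p = 0.0454 and 0.0319). Those 2 libraries bear on the oral comparison only through the shared fit, and the oral change stayed at 1.36 and 1.38. The intraperitoneal value was 0.14 ± 0.72 without library 28 (edgeR adjusted p = 0.875), and 1.65 and called without library 25, which had no count (edgeR adjusted p = 0.0258).

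Mmp9 (ID 17395, chromosome 2, 164940326 to 164955850) encodes gelatinase B, which is stored in neutrophil granules and is also made by macrophages and keratinocytes. Oral vehicle libraries had 9.46, 6.46, 13.5 and 3.25 CPM and oral IL-23 libraries 9.69, 8.33, 22.7 and 37.2 CPM. Only IL-23 libraries 26 and 68 exceeded every vehicle library of that route. The rise was called, with a log2 fold change of 1.24 ± 0.44 (SE; edgeR adjusted p = 0.0222). It was no longer called without IL-23 library 68 (0.71, edgeR adjusted p = 0.156), IL-23 library 26 (1.17, 0.0507), vehicle library 27 (1.15, 0.056) or vehicle library 51 (1.003, 0.0595). In intraperitoneal mice the groups did not overlap, with 3.47, 6.20, 4.05 and 5.40 CPM for vehicle and 11.8, 11.6, 13.6 and, in library 28, 25.3 CPM for IL-23. The log2 fold change there was 1.74 ± 0.47 (edgeR adjusted p = 0.00436) and 1.42 ± 0.47 without library 28 (edgeR adjusted p = 0.015).

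Of 11 neutrophil markers, 5 passed the filter on low counts (Cxcr2, Csf3r, Retnlg, S100a8 and Itgam), and those 5 were called higher in both routes, and in intraperitoneal mice also without library 28. Of all genes, 29.2% were called higher in oral and 30.8% in intraperitoneal mice. Cxcr2, a chemokine receptor gene, had a log2 fold change of 4.26 in oral and 4.10 in intraperitoneal mice. Cxcr2 and Retnlg had vehicle means of at most 1.47 and 0.66 CPM, so the IL-23 libraries could carry them past the filter, and their count is a description. Leaving out S100a8, which activated keratinocytes also express, the 10 markers summed to 9.64 to 14.4 CPM in oral vehicle libraries and 53.0 to 125 CPM in oral IL-23 libraries. The sums were 9.35 to 17.7 and 45.3 to 136 CPM in intraperitoneal mice, the highest being library 28 and the next 86.1 CPM. The granule protease gene Elane was at 0 in all 8 IL-23 libraries and in 5 of the 8 vehicle libraries. Ngp, a granule protein gene, was at 0 in 6 and 7 of them. Camp, the cathelicidin gene, had 21 counts in oral vehicle and 7 in oral IL-23 libraries, and 27 and 3 in intraperitoneal mice. Mpo, the myeloperoxidase gene, had 11 and 10 counts in oral and 17 and 7 in intraperitoneal mice. Ly6g, also under the filter, went the other way, with 0 and 5 counts in oral and 1 and 9 in intraperitoneal mice. Ltf had 13 and 7 counts in oral and 7 and 13 in intraperitoneal mice. The part of neutrophil content in the levels of Mmp8 and Mmp9 was not tested.

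Mmp12 (ID 17381, chromosome 9, 7344397 to 7360461) encodes macrophage elastase, which cuts elastin. It had 0.48, 0.49, 1.87 and 2.23 CPM in oral vehicle libraries and 4.27, 4.83, 8.37 and 8.19 CPM in oral IL-23 libraries. The groups did not overlap, and the log2 fold change of 2.31 ± 0.49 (SE; edgeR adjusted p = 0.000636) exceeded that of the other genes of the set in that route. In intraperitoneal mice vehicle libraries had 0.78, 4.49, 1.83 and 1.10 CPM and IL-23 libraries 3.57, 5.35, 4.64 and 3.46 CPM. Vehicle library 50 reached the IL-23 range and the other 3 vehicle libraries did not. The log2 fold change was 1.15 ± 0.49 and missed the threshold (edgeR adjusted p = 0.0521). It passed with RLE factors (0.0469), without a count filter (0.0486), with DESeq2 (adjusted p = 0.0385), and without vehicle library 50 (1.79, edgeR adjusted p = 0.00404), library 28 (1.29, 0.0359) or any of the vehicle oral libraries 4, 27 and 51 (1.15 to 1.16, 0.0441 to 0.0494).

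Macrophage markers were called higher for 4 of 9 genes in oral mice and 5 of 9 in intraperitoneal mice, and 1 fell in each route. Of all genes, 29.2% and 30.8% were called higher, and the list was not tested against these shares. Without library 28, 4 of 9 rose and 1 fell in intraperitoneal mice, with a median log2 fold change of 0.46 in place of 1.05, and C1qb, a complement gene, was the one no longer called (edgeR adjusted p = 0.132). Their summed level was 157 to 259 CPM in oral vehicle and 276 to 578 CPM in oral IL-23 libraries. Mrc1, the mannose receptor gene of tissue macrophages, rose from 50.4 ± 14.1 to 145 ± 74.5 CPM over both routes (SD, n = 8 each), and Adgre1, which encodes F4/80, had 14.99 ± 5.01 and 22.3 ± 18.4 CPM and was not called. Library 28 held 316 CPM of Mrc1 and 66.9 CPM of Adgre1, against 82.9 to 142 and 11.03 to 16.2 CPM in the other IL-23 intraperitoneal libraries, and without it the rise of Mrc1 in that route was still called (1.11, edgeR adjusted p = 0.000699). Mertk, a receptor for apoptotic cells, was the member that fell. None of the 9 genes was at 0 in any library, and their part in the level of Mmp12 was not tested.

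**Figure D3:**
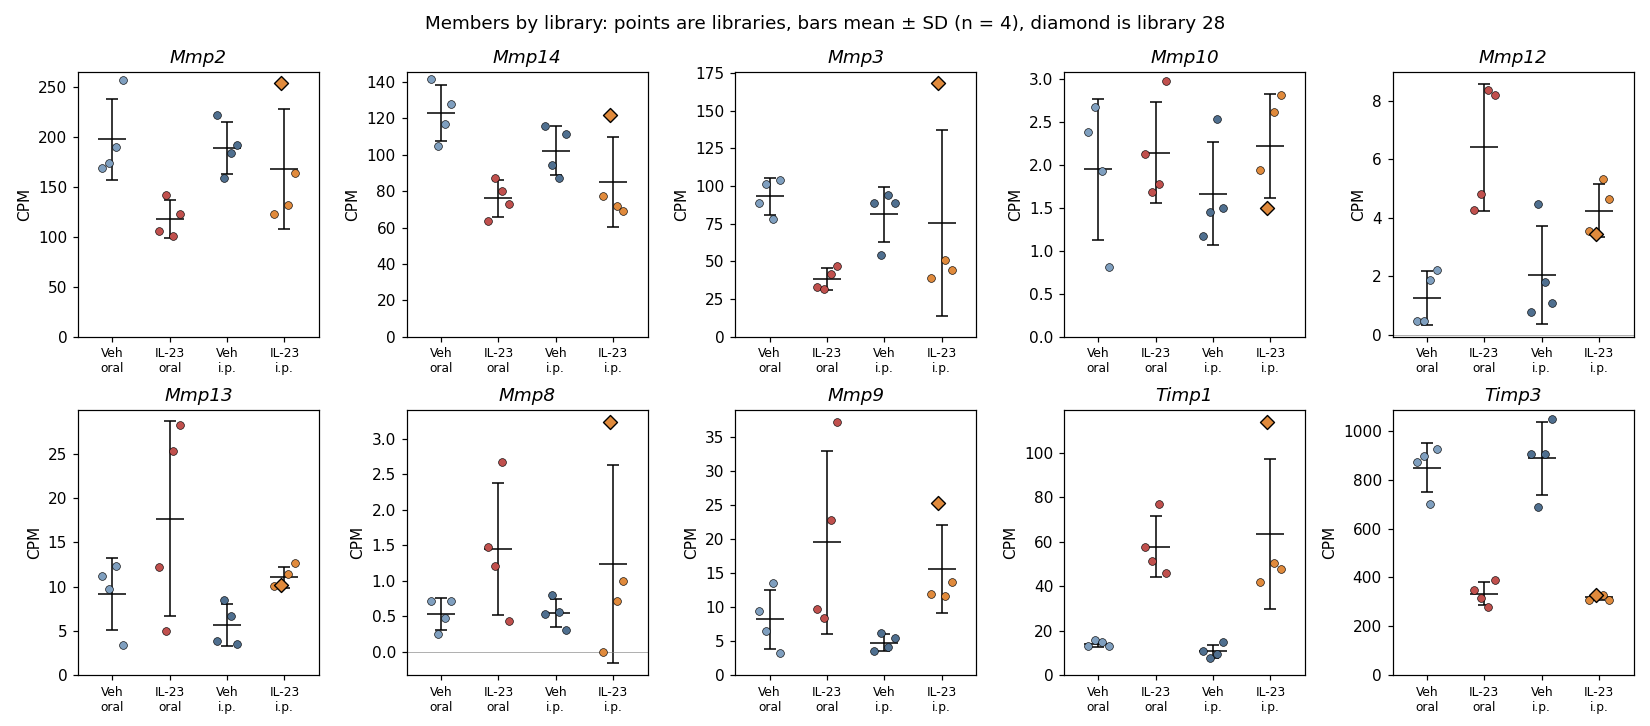
CPM of the 10 genes in each of the 16 libraries on linear axes, with the mean ± SD of each group (n = 4) and library 28 as a diamond. Timp1 and Timp3 separate the agents in both routes, whereas Mmp3 in library 28, at 168 CPM, lies above every other library.

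Timp1 (ID 21857, chromosome X, 20870166 to 20874737) encodes a secreted inhibitor of most MMPs that is induced by inflammatory cytokines. It had 12.9, 15.6, 14.7 and 12.9 CPM in oral vehicle libraries and 57.5, 51.2, 76.9 and 45.9 CPM in oral IL-23 libraries. Intraperitoneal vehicle libraries had 10.7, 7.52, 9.69 and 14.7 CPM, and IL-23 libraries had 41.998, 50.5, 47.8 and, in library 28, 114 CPM. The lowest IL-23 library lay above the highest vehicle library in each route. Timp1 rose 4.13-fold in oral mice (log2 fold change 2.04 ± 0.28, edgeR adjusted p = 8.25e-06) and 5.97-fold in intraperitoneal mice (2.58 ± 0.28, edgeR adjusted p = 1.23e-06). Without library 28 the intraperitoneal log2 fold change was 2.14 ± 0.18 (edgeR adjusted p = 3.64e-08).

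Timp3 (ID 21859, chromosome 10, 86300412 to 86349505) encodes the inhibitor that binds to the extracellular matrix and also blocks ADAM proteases. Oral vehicle libraries had 874, 895, 702 and 924 CPM and oral IL-23 libraries 350.3, 315, 279 and 390.2 CPM. Intraperitoneal vehicle libraries had 907, 688, 907 and 1047 CPM and IL-23 libraries 308, 328, 308 and, in library 28, 326 CPM. No IL-23 library reached a vehicle library, and library 28 lay within the range of its group. Timp3 fell by 1.35 ± 0.13 on the log2 scale in oral mice (SE; edgeR adjusted p = 1.82e-07) and by 1.48 ± 0.13 in intraperitoneal mice (edgeR adjusted p = 9.63e-08). Leaving out any one library gave values from -1.43 to -1.27 in oral and from -1.58 to -1.39 in intraperitoneal mice.

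The opposite moves of these inhibitors changed the make-up of the TIMP transcripts. Levels per kilobase of exon (GENCODE M21 exon unions) were used, since a longer transcript yields more reads. Timp1 made up 4.02% to 5.99% of the summed level of the 4 TIMP genes per kilobase in oral vehicle libraries and 25.3% to 42.5% in oral IL-23 libraries. In intraperitoneal mice it was 3.11% to 4.30% and 27.7% to 45.4%, with 29.3% the highest value outside library 28. Timp3 held 53.7% to 57.8% and 52.6% to 57.5% with vehicle, and 29.1% to 40.4% and 24.4% to 38.2% with IL-23. The ratio of Timp3 to Timp1 per kilobase, which does not depend on library scaling, was 11.503 ± 2.04 in oral vehicle and 1.15 ± 0.37 in oral IL-23 libraries (SD, n = 4 each). It was 16.04 ± 1.90 and 1.09 ± 0.37 in intraperitoneal mice, and 1.27 ± 0.092 in the 3 IL-23 libraries other than library 28. These shares describe the libraries and were not tested.

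**Figure D4:**
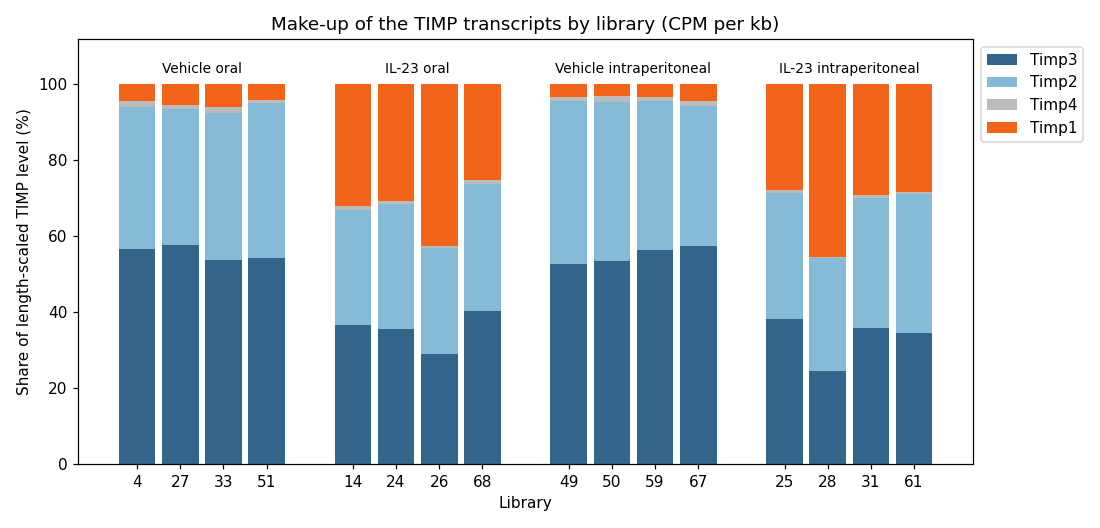
Share (%) of Timp1, Timp2, Timp3 and Timp4 in the summed CPM per kilobase of the 4 TIMP genes, 1 bar per library, grouped by agent and route. Timp1 takes 3.11% to 5.99% in the vehicle libraries and 25.3% to 45.4% in the IL-23 libraries.

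Per kilobase, the order of mean levels in oral vehicle libraries was Timp3 (179.8 ± 21.1 CPM per kb), Mmp2 (64.2 ± 13.3), Mmp3 (51.7 ± 6.71), Mmp14 (29.3 ± 3.70), Timp1 (15.8 ± 1.53), Mmp13 (3.43 ± 1.503), Mmp9 (2.57 ± 1.38), Mmp10 (1.13 ± 0.48), Mmp12 (0.32 ± 0.23) and Mmp8 (0.22 ± 0.093). The ranges of Mmp2 and Mmp3 overlapped, as did those of Mmp13 and Mmp9, of Mmp9 and Mmp10, of Mmp10 and Mmp12, and of Mmp12 and Mmp8. In oral IL-23 libraries Timp3 (70.7 ± 10.05) and Timp1 (65.2 ± 15.2) stood above Mmp2 (38.4 ± 6.11), and their ranges, 59.2 to 82.6 and 51.7 to 86.6 CPM per kb, overlapped. Mmp12 then stood at 1.61 ± 0.54 and Mmp10 at 1.25 ± 0.34 CPM per kb, with overlapping ranges. In intraperitoneal vehicle libraries the order was Timp3 (188 ± 31.4), Mmp2 (61.5 ± 8.51), Mmp3 (45.1 ± 10.2), Mmp14 (24.4 ± 3.25), Timp1 (11.99 ± 3.39), Mmp13 (2.10 ± 0.89), Mmp9 (1.51 ± 0.39), Mmp10 (0.97 ± 0.35), Mmp12 (0.52 ± 0.42) and Mmp8 (0.22 ± 0.083 CPM per kb). The same neighbours in this order had overlapping ranges as in oral vehicle libraries. In intraperitoneal IL-23 libraries Timp1 (71.6 ± 38.1), Timp3 (67.3 ± 2.37), Mmp2 (54.7 ± 19.6) and Mmp3 (42.003 ± 34.3 CPM per kb) stood highest, and their ranges overlapped. That order rested on library 28. In the 3 other libraries Timp3 (66.6 ± 2.46) stood above Timp1 (52.7 ± 4.89), Mmp2 (45.3 ± 7.02) and Mmp3 (24.9 ± 3.31 CPM per kb), and the range of Timp3, 65.1 to 69.5, did not overlap with that of Timp1, 47.3 to 56.9 CPM per kb. The ranges of Timp1 and Mmp2 overlapped, and that of Mmp3 lay below both.

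None of the 10 genes was called for a difference in response between the routes. The largest differences (intraperitoneal minus oral) were 1.17 ± 0.49 for Mmp3 and -1.16 ± 0.70 for Mmp12 on the log2 scale (SE; edgeR adjusted p = 0.875 for both), and the unadjusted p of Mmp3 was 0.0287. Without library 28 the difference for Mmp3 was 0.39 ± 0.23 and that for Mmp12 -1.05 ± 0.70 (edgeR adjusted p = 0.977 for both). Over all genes edgeR called 0 of 14671 (0%), with 796 at an unadjusted p under 0.05, and DESeq2 called 1, the splicing factor gene Rbm4.

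The list counts from here on stand beside 29.2% of all genes called higher and 34% called lower in oral mice. In intraperitoneal mice these shares were 30.8% and 30.9%, and no list was tested against them. Among the other genes of the system, those of the remaining inhibitors were lower. In that list of 5, all 4 tested genes (Timp2, Timp4, Reck and A2m) fell in both routes, with medians of -1.33 and -1.83. A2m, a protease-trapping plasma protein gene, went from 85.7 ± 24.8 to 16.7 ± 6.97 CPM, and Reck, a membrane-anchored MMP inhibitor gene, from 89.4 ± 15.04 to 30.5 ± 2.24 CPM (SD, n = 8 each). Timp4 went from 24.4 ± 3.17 to 8.13 ± 2.91 CPM and Timp2, which takes part in MMP2 activation by MMP14, from 483 ± 65.4 to 243 ± 33.9 CPM. Timp1 was thus the single TIMP gene of the 4 that rose. Genes of muscle and fat fell beside them: all 8 skeletal muscle markers fell in both routes (medians -1.42 and -0.90), and 5 of 6 adipocyte markers did (medians -2.16 and -1.76). The part of those tissues in the falls of the inhibitor genes was not tested.

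Of the 15 other MMP genes, 9 were tested. In oral mice 0 rose and 2 fell, which were Mmp11, a stromelysin of remodelling stroma (3.86 ± 0.51 to 1.496 ± 0.69 CPM over both routes), and Mmp28, an epidermal MMP gene (27.3 ± 3.27 to 18.9 ± 1.40 CPM; SD, n = 8 each). In intraperitoneal mice 2 rose and 5 fell, the others being Mmp15, Mmp16 and Mmp17, genes of membrane-anchored MMPs. Those that rose, Mmp19 and Mmp25, had 28.8 and 11.3 CPM in library 28 and at most 8.32 and 1.95 CPM in the other IL-23 intraperitoneal libraries. Mmp25 had vehicle means of at most 0.99 CPM, so the IL-23 libraries could carry it past the filter. Without library 28, 0 rose and 4 fell in that route, and 2 rose in oral mice, again Mmp19 and Mmp25. The count of rises was 1 without vehicle intraperitoneal library 50 or 59, that of falls was 3 without IL-23 intraperitoneal library 31, and 5 fell in oral mice with plain library size.

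Genes that produce or control plasmin, a protease that can activate MMP proenzymes, moved in both directions. Of 8 genes, 6 were tested; 3 rose and 1 fell in oral mice, and the same 4 genes were called in the same directions in intraperitoneal mice. Plaur, the urokinase receptor gene, went from 6.25 ± 1.66 to 38.8 ± 17.4 CPM and Plau, the urokinase gene, from 65.0 ± 2.93 to 127 ± 24.1 CPM (SD, n = 8 each). Serpinb2, a plasminogen activator inhibitor gene of keratinocytes and macrophages, went from 399 ± 43.5 to 596 ± 117 CPM. Serpine2, an inhibitor gene of thrombin and urokinase, fell from 40.6 ± 3.54 to 19.7 ± 3.27 CPM.

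Among genes whose products activate or induce MMPs, 2 of 4 tested (of 8) rose and 1 fell in both routes. Furin, the proprotein convertase that activates MMP14, went from 157 ± 7.88 to 217 ± 16.5 CPM, and Bsg, which encodes the MMP inducer basigin, from 288 ± 26.3 to 373 ± 43.7 CPM. The intraperitoneal call of Bsg was lost with plain library size (log2 fold change 0.12, edgeR adjusted p = 0.11). Pcsk6, another convertase gene, fell from 102 ± 11.7 to 60.6 ± 13.5 CPM. The intraperitoneal count of falls was 2 in 13 of the 16 fits that left out a library. The second was Ctsg, the cathepsin G gene of neutrophils and mast cells, in the fit without library 28.

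In the ADAM list, which holds membrane-bound relatives that shed cytokines and receptors, 2 of 8 rose and 2 fell in oral mice, and 3 rose (Adam12, a gene of fibroblasts and muscle progenitors, besides those below) and 1 fell in intraperitoneal mice. Adam12 had 12.9 CPM in library 28 and 0.65 to 2.98 CPM in the other IL-23 libraries of that route. Without library 28 its log2 fold change was 0.27 (edgeR adjusted p = 0.549), and 2 rose and 1 fell. Adam8, an ADAM gene of leukocytes, went from 33.0 ± 7.78 to 109.8 ± 26.2 CPM and Adam17, the TNF convertase gene, from 107 ± 5.93 to 146 ± 9.30 CPM (SD, n = 8 each). Adam33 went from 9.23 ± 1.96 to 4.57 ± 1.51 CPM, and its oral call was lost without vehicle library 4 or 51 or IL-23 library 14 or 24 (edgeR adjusted p up to 0.0831). Falls, of which Adam9 was the other, numbered 0 without library 51 and 1 without each of the other 3. In the ADAMTS list, secreted relatives that cut proteoglycans and procollagens, 0 of 12 rose and 8 fell in oral mice. In intraperitoneal mice 3 rose (Adamts4 and Adamts5, the genes of the main aggrecanases, and Adamts15) and 4 fell (Adamts6 and those below). Without library 28 the intraperitoneal counts were 1 and 7. The count of rises was also 1 without vehicle library 49, 59 or 67 or IL-23 library 31 and with plain library size, and 1 rose and 5 fell in oral mice without vehicle library 51. Adamts14, a procollagen processing gene, went from 85.9 ± 8.01 to 13.7 ± 3.89 CPM, Adamts10, whose product binds fibrillin, from 25.8 ± 4.85 to 10.8 ± 1.22 CPM and Adamts3, another procollagen processing gene, from 6.46 ± 1.32 to 3.01 ± 0.79 CPM.

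Of the matrix genes whose products are MMP substrates, 8 of 12 fell and 0 rose in oral mice (median -1.02). In intraperitoneal mice 3 fell, 0 rose and 9 were not called (median -0.29), a share of falls below the 30.9% of all genes. There Col3a1 and Vcan had log2 fold changes of 0.61 and 0.77 (edgeR adjusted p = 0.218 and 0.147). These changed sign to -0.23 and -0.36 when library 28 was left out (edgeR adjusted p = 0.470 and 0.123). Without library 28, 8 fell and 0 rose in that route (median -0.68). With plain library size 5 fell in intraperitoneal mice, and 1 rose there without IL-23 library 25 or 61. Acan, the aggrecan gene, went from 285 ± 38.1 to 116 ± 32.8 CPM, Col7a1, of the anchoring fibrils, from 295 ± 62.6 to 119.7 ± 27.3 CPM, and Eln, the elastin gene, from 295 ± 59.5 to 133 ± 42.7 CPM (SD, n = 8 each). Cartilage markers, a list that also holds Acan, moved beside them: 3 of 6 tested fell in oral and 4 in intraperitoneal mice, and 0 rose. Among them Col9a1, a cartilage collagen gene, had log2 fold changes of -1.72 and -1.61, and Sox9, a cartilage and hair follicle regulator gene, -0.75 and -1.15. Summed over 7 markers the level was 465 to 569.7 CPM in oral vehicle and 191 to 353 CPM in oral IL-23 libraries, and 469 to 627 and 176 to 243 CPM in intraperitoneal mice. Matn1, a cartilage matrix gene, was at 0 in all 8 vehicle and 5 IL-23 libraries. The part of cartilage in the level of Acan was not tested.

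Genes that are known inducers of MMP transcription were higher. In oral mice 10 of 12 rose and 0 fell (median 2.48), and in intraperitoneal mice 7 rose and 0 fell (median 1.54). Of all genes, 29.2% and 30.8% were called higher. Il6 and Fosl1 had vehicle means of at most 0.18 and 1.12 CPM. The IL-23 libraries could thus carry them past the filter, and their calls are a description. Il1b went from 17.98 ± 13.8 to 198 ± 107 CPM and Osm, which encodes oncostatin M, from 1.28 ± 0.65 to 15.2 ± 11.6 CPM (SD, n = 8 each). Il6 had 9 counts in oral vehicle and 86 in oral IL-23 libraries, and 1 and 99 in intraperitoneal mice. Scaled by library size, the ratio was 13.8 in oral mice (95% exact binomial interval 6.93 to 31.2) and 154 in intraperitoneal mice (27.0 to 6131), counting error only. Without library 28, 43 counts and a ratio of 94.8 (16.1 to 3832) were left in intraperitoneal mice. Of the AP-1 subunit genes, only Junb was called in both routes. It rose from 129 ± 14.9 to 593 ± 244 CPM, with log2 fold changes of 2.50 and 1.80. Fosl1 had 2.46 in oral mice (edgeR adjusted p = 0.00126) and 1.09 in intraperitoneal mice, which was not called (edgeR adjusted p = 0.0717). Fos and Jun rose in oral mice (2.93 and 1.05), where their groups overlapped. In intraperitoneal mice their groups did not overlap, but neither was called (edgeR adjusted p = 0.118 and 0.0745). Fosb was called in neither route (edgeR adjusted p = 0.0783 and 0.164).

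**Figure D5:**
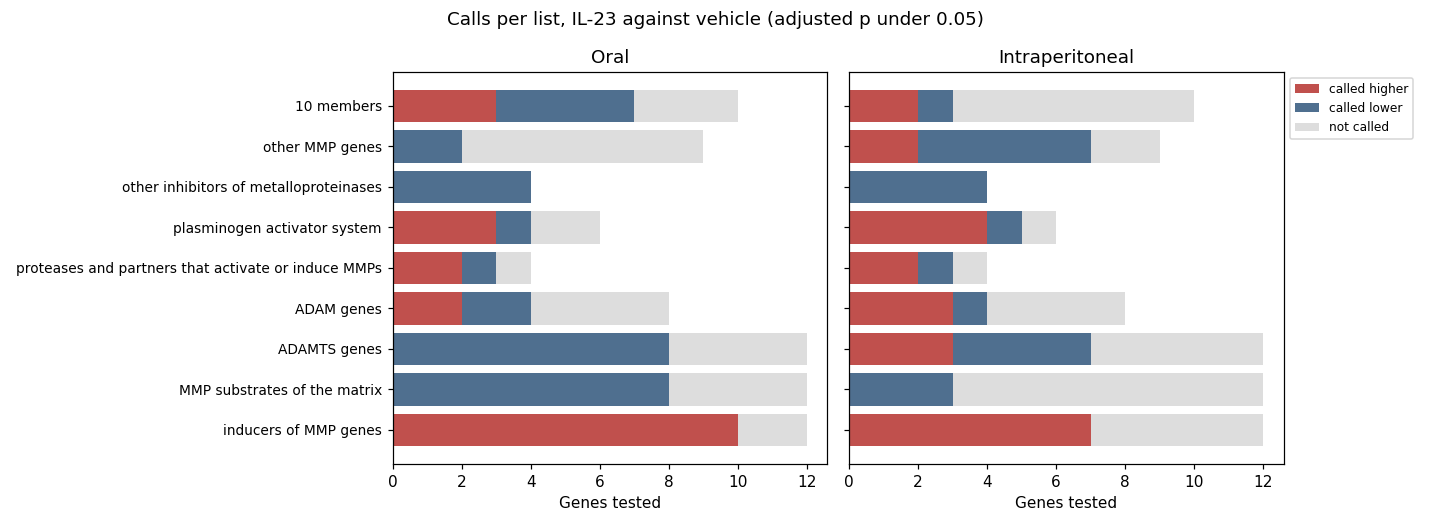
Number of tested genes called higher, called lower or not called (adjusted p under 0.05) for the 10 genes and 8 lists of related genes, by route. The 4 other inhibitor genes were all called lower in both routes, and 10 and 7 of the 12 inducer genes were called higher.

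Profiles over the 16 libraries were compared by the root mean square difference of log2 CPM after centring each gene on its mean. The gene nearest to Mmp9 was Mmp13 and the gene nearest to Mmp13 was Mmp9 (0.497), among all 14671 genes. Slc16a3 was about as near to Mmp13 (0.498), and Tubb6 came next for Mmp9 (0.53). Nearest to Timp3 was Arhgef10 (0.13), with log2 fold changes of -1.43 in oral and -1.47 in intraperitoneal mice, and then Ltbp4, a matrix protein gene that binds latent TGF-beta complexes (0.13). Nearest to Timp1 were Upp1 (0.33) and Steap1 (0.36). Nearest to Mmp2 were Adamtsl1 and Cd34 (0.15 each), to Mmp14 Pomk and Man2b2 (0.16 each), and to Mmp3 Slc8a1 (0.21) and Gfra1 (0.22). All of these stood higher in library 28 than in the other IL-23 intraperitoneal libraries. Slc8a1 had 18.3 against 3.73 to 4.64 CPM, Gfra1 37.6 against 6.54 to 7.46 CPM and Cd34 110 against 61.1 to 70.7 CPM. Arhgef10 and Ltbp4, nearest to Timp3, lay within the range of those libraries. Nearest to Mmp10 were Nhej1 (0.30) and Grin3b (0.31), to Mmp8 Phf11b (0.47) and Apol7c (0.60), and to Mmp12 Cpn1 (0.55) and Cd209e (0.55). Distances were thus widest for Mmp8, Mmp9, Mmp12 and Mmp13, and those for Mmp10 lay below those for Timp1. Library 28 had 7.04 CPM of Phf11b, against 0 to 1.43 CPM in the other IL-23 intraperitoneal libraries. The profiles were not compared without library 28.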

How the data were processed

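The authors deposited raw counts: whole-number reads per gene for 16 mouse libraries, not scaled. FastQC, STAR 2.52, featureCounts from Subread 1.5.0 and the GRCm38 build appear in the submitters' processing notes. Neither the annotation nor the strand setting nor the handling of multi-mapping reads is stated in the sources used here.

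With edgeR 4.0.16 (R 4.3.3), TMM factors were computed after filterByExpr (minimum count 10; 14671 genes kept), and 4 group means were fitted with a quasi-likelihood test (12 residual degrees of freedom). The groups share a single estimate of the spread, so leaving out a library of 1 route can change a call in the other. An SE is the size of the log2 change divided by the root of its F value. Alternatives were RLE factors, plain library size, no count filter (20799 genes), 1 CPM in at least 4 libraries, DESeq2 1.42.0, a fit of only the 2 groups compared, and leaving out each library. The fit was checked on simulated data.

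Members and lists were chosen with earlier results of these data known. Named genes are the 10 members, up to 3 genes per list and direction with the largest mean change among those called alike in both routes at 1 CPM or more, and the 2 nearest profiles per member. Marker genes, Timp2, Junb, Fosl1, Fos, Jun, Fosb, Rbm4 and the list genes named to spell out a count were chosen after their values were seen. Positions come from RefSeq GRCm38.p6. Library pairs within groups differed by more than sampling noise. No library numbers are shared between groups, so no paired analysis was possible. The result of 1 list gene is not reported here.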

Additional observations from a re-analysis of the deposited data

Results flagged for a closer look

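In 5 of 40 sets of 4 libraries (10 genes in 4 groups), 1 library lay far from the other 3 of its group, where chance gives about 1 in 20. In 4 of these it was IL-23 intraperitoneal library 28. Mmp3 stood at 168 CPM there against 39.2 to 51.1 CPM in the other 3 libraries, Mmp9 at 25.3 against 11.6 to 13.6 CPM, Mmp14 at 122 against 68.8 to 77.5 CPM and Timp1 at 114 against 41.998 to 50.5 CPM. The fifth was Mmp3 in vehicle intraperitoneal library 50, at 54.0 CPM against 88.4 to 93.7 CPM. In library 28 Timp3 (326 CPM against 308 to 328 CPM) and Mmp13 (10.2 CPM against 10.1 to 12.6 CPM) lay within the range of the others.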

How the results depend on the processing

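The called directions of Timp1, Timp3, Mmp2, Mmp3, Mmp14 and Mmp12 in oral mice, and of Timp1, Timp3 and Mmp9 in intraperitoneal mice, kept their side of the threshold under every alternative run. Leaving out 1 library at a time, the members called higher numbered 2 to 5 in oral and 2 to 4 in intraperitoneal mice, and those called lower 4 in oral and 1 to 4 in intraperitoneal mice. Genes called over the table ranged from 8457 to 9768 and from 8310.0 to 9092. The intraperitoneal count of higher members was 4 without vehicle oral library 51 or vehicle intraperitoneal library 50. With plain library size 2 members were lower in intraperitoneal mice and the oral Mmp10 change was -0.041. That scaling moved the median log2 fold change of all genes from -0.06 to -0.26 in oral and from -0.02 to -0.23 in intraperitoneal mice, and the share of calls that were higher from 46.2% to 31% and from 49.9% to 31.5%. DESeq2 called 1 gene for the difference between routes, where edgeR called 0. The sign of values that were not called changed with single libraries for Mmp10 in oral mice (-0.074 to 0.31), Mmp3 in intraperitoneal mice (-0.84 to 0.12), and the route differences of Mmp8 (-1.24 to 0.43) and Mmp13 (-0.25 to 0.39). The cause was not tested. Mmp8 and Mmp10, with at most 32 counts in a library, are limited by depth.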
